A study of Homo sapiens with 8 samples.

Results

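The 8 genes described here encode BH3-only proteins, the death-promoting branch of the BCL-2 family: PMAIP1 (NOXA), HRK (Harakiri), BBC3 (PUMA), BID, BAD, BCL2L11 (BIM), BIK and BMF. They were listed by symbol and found in the count tables through their Ensembl gene identifiers, 8 of 8 among 60675 listed genes. The cells were Panc10.05, a human pancreatic cancer line, and 1 derivative with acquired resistance to indisulam (Panc10.05R), and their RNA was sequenced. Indisulam is a molecular glue: it binds RBM39, a splicing factor, to a ubiquitin ligase that contains DCAF15, and RBM39 protein is then degraded. The 8 libraries formed 4 groups, each of 2. Parental untreated cells saw no drug, and parental indisulam cells received 2 µM for 18 h. Resistant indisulam cells were kept on 2 µM without a break, and resistant untreated cells came from the same resistant culture after a week off the drug. All 4 groups therefore shared the Panc10.05 background, and a difference between resistant and parental cells is a difference between 1 resistant culture and its parent. On the drug the lines also differ in length of exposure, so in every comparison there line and exposure cannot be told apart. Whether the resistant culture is 1 clone is not given in the sources used here. In the labels the culture and dosing notes speak of A549, a lung line, but each title and each cell line entry says Panc10.05, and the titles were used.

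BH3-only proteins sense damage or stress and carry it to the mitochondrion. Each holds a short helix, the BH3 motif, that fits into a groove on the survival proteins BCL-2, BCL-XL (BCL2L1), BCL-W (BCL2L2) and MCL1. Some of them also switch on BAX and BAK1, which then open the outer mitochondrial membrane. They differ in the survival protein they prefer: NOXA binds MCL1, HRK binds BCL-XL, BAD binds BCL-2, BCL-XL and BCL-W, and BIM, PUMA and BID bind broadly. The study asked whether cells with acquired resistance depend on BCL-XL. It probed this with inhibitors that target BCL-XL and with BAD and HRK peptides, among other assays. The comparisons below ask how much RNA of each BH3-only gene cells of the same lines held. In the RNA samples the dose of indisulam was higher than in the peptide assay, and the exposure of parental cells was shorter.

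The motif is what makes the 8 genes a family, so the part of each coding sequence that encodes its core is shown. The stretches of 36 bases were read from GRCh38 on the canonical transcripts of GENCODE release 44. The first capitals mark the codon of the core leucine, and the second capitals mark the codons of a small residue and the aspartate after it.
PMAIP1: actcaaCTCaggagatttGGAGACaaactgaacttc
HRK: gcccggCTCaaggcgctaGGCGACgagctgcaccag
BBC3: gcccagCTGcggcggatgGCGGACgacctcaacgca
BID: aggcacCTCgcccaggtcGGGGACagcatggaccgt
BAD: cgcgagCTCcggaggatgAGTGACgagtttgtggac
BCL2L11: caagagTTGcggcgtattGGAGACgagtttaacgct
BIK: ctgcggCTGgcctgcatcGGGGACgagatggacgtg
BMF: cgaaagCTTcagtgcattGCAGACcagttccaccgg

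The aspartate codon was GAC in all 8 genes, and the small residue was glycine in 5, alanine in BBC3 and BMF, and serine in BAD. The pattern searched for was leucine, any 3 residues, a small residue, aspartate, any residue and then leucine, methionine or phenylalanine. It occurred exactly 1 time in each of the 8 proteins, and each stretch lay within 1 coding exon. On the plus strand, the stretch of PMAIP1 is chr18:59902667-59902702 in exon 2, that of BCL2L11 chr2:111150097-111150132 in exon 3 and that of BIK chr22:43127710-43127745 in exon 3. On the minus strand, the stretch of HRK is chr12:116881170-116881205 in exon 1, that of BBC3 chr19:47226579-47226614 in exon 3 and that of BID chr22:17739415-17739450 in exon 4. Also on the minus strand, BAD holds it at chr11:64271622-64271657 in exon 3 and BMF at chr15:40104195-40104230 in exon 4. The core leucine is residue 29 of 54 in PMAIP1, the shortest of the 8 proteins, and residue 152 of 198 in BCL2L11, the longest. Counts were made per gene, so transcripts with and without these exons were not told apart.

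Reads in genes numbered 65266253 to 108002436 per library, and levels are given in CPM, which scales counts to a common library size by the TMM method. Libraries of a group correlated with Pearson r of 0.996 to 0.998 across genes. Calls come from an edgeR quasi-likelihood model of all 8 libraries with Benjamini-Hochberg adjustment over 16661 tested genes, at an adjusted p under 0.05. All 8 BH3-only genes passed the filter on low counts. The RNA came from whole cultures, so a change in the share of cells that express a gene and a change in RNA per cell cannot be told apart. The libraries of a group are technical replicates according to the study, so a p-value here concerns the spread between libraries of a culture. Of 7 markers of ductal epithelium, 7 had a mean of at least 1 CPM, with a summed level of 6329 to 12248 CPM per library that was higher in resistant cells (mean 10849 off and 12061 CPM on the drug) than in parental cells (6392 and 6466). Of 5 lung alveolar markers none reached 1 CPM, 3 were at 0 in every library, and the sum ranged from 0.0258 to 0.198 CPM. The 4 leukocyte markers summed to 0.0154 to 0.181 CPM, with 3 at 0. The 5 fibroblast markers, 2 of them at 0, summed to a mean of 3.95 CPM in resistant indisulam libraries and of 1.57 in parental untreated, 1.46 in parental indisulam and 1.61 in resistant untreated ones, and their part in the results was not tested. RBM39, whose protein the drug removes, had transcript levels of 334.2 and 304.8 CPM in untreated parental and resistant cells and 723.8 and 584.2 CPM on the drug.

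Levels of different genes were compared per kilobase of merged exon length. Off the drug in parental cells BAD stood at 15.4 ± 0.199 CPM per kb (SD, n = 2 here and below) and PMAIP1 at 14.4 ± 0.273, followed by BID at 6.34 ± 0.175 and BIK at 5.75 ± 0.001. BCL2L11 followed at 3.03 ± 0.0367 and BBC3 at 1.33 ± 0.107, while BMF (0.345 ± 0.0314) and HRK (0.193 ± 0.0273) were the least abundant per length. In resistant cells PMAIP1 came first, at 26.7 ± 1.36 CPM per kb off and 28.2 ± 0.903 on the drug, against 15.5 ± 0.318 and 14.2 ± 0.169 for BAD. PMAIP1 made up 30.4 to 31.3% of the summed level per length of the 8 genes in the 4 parental libraries and 40.5 to 46.5% in the 4 resistant ones. BAD made up 30.7 to 33.0% in parental and 23.0 to 24.7% in resistant libraries. The levels also differed from those of the partners: BCL2L1 stood between 90.6 and 111 CPM per kb across the 4 groups, MCL1 between 61.1 and 68.9, BAX between 36.9 and 60.4 and BAK1 between 26.3 and 31.8.

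**Figure D1:**
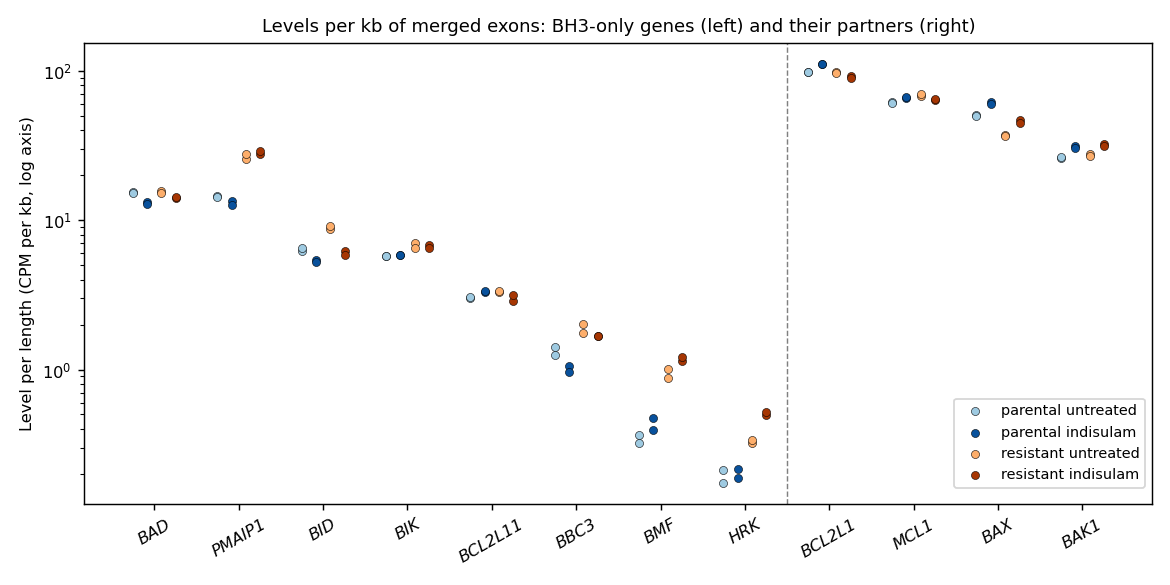
Level in CPM per kilobase of merged exons (log axis) of the 8 BH3-only genes, left of the dashed line, and of 4 partners, right of it. Each point is 1 library and colours mark the 4 groups. PMAIP1 sits near 14 in parental and near 27 in resistant libraries, while BMF and HRK lie below 1.3 in all 8 libraries.

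Resistant cells off the drug held more RNA of 7 of the 8 BH3-only genes than untreated parental cells, and BAD (encodes a sensor held in check by phosphorylation) was the exception. The 7 calls, all higher, compare with 60.1% of all tested genes called, 30.3% called higher and 29.9% called lower. The median difference of the 8 genes was 0.50 log2 units, against -0.02 for all tested genes. Against a minimum of 0.5 log2 units, 3 of the 8 were called (PMAIP1, HRK and BMF), where 15.5% of all tested genes were. Libraries of the lines did not overlap for 79.5% of all tested genes off the drug and 83.8% on it, the shares beside which the separations below stand. PMAIP1, HRK and BMF are the genes whose data follow first.

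BMF, a BH3-only protein that is tied to the cytoskeleton through dynein light chain, showed the largest line difference among the 8. It stood at 2.00 and 1.76 CPM in the parental untreated libraries and at 4.75 and 5.47 CPM in the resistant untreated ones, from 219, 188, 352 and 355 reads. On the drug it stood at 2.56 and 2.14 CPM in parental and at 6.20 and 6.56 CPM in resistant libraries. Both resistant libraries lay above both parental ones, off and on the drug. The difference was 1.44 ± 0.10 log2 units (SE) off the drug (2.71-fold, edgeR adjusted p = 2.2e-11) and 1.44 ± 0.10 on it (2.72-fold, adjusted p = 9.5e-12). Off the drug this lay at percentile 95.1 of all tested genes.

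PMAIP1, which encodes NOXA, stood at 31.9 and 31.1 CPM in the parental untreated libraries and at 56.3 and 60.5 CPM in the resistant untreated ones. On the drug it stood at 29.3 and 27.6 CPM in parental and at 60.3 and 63.1 CPM in resistant libraries. The 4 resistant values all lay above the 4 parental ones, as they did for 19.9% of all tested genes. The difference was 0.89 ± 0.04 log2 units off the drug (1.85-fold) and 1.12 ± 0.04 on it (2.17-fold, edgeR adjusted p = 1.1e-16).

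HRK, a neuron-enriched BH3-only protein that binds BCL-XL, was the least abundant of the 8. Parental untreated libraries held 1.45 and 1.19 CPM, from 159 and 127 reads, and resistant untreated libraries 2.201 and 2.310 CPM, from 163 and 150 reads. On the drug the values were 1.48 and 1.28 CPM in parental and 3.41 and 3.55 CPM in resistant libraries. The libraries of the lines did not overlap in either setting. Resistant cells were higher by 0.77 ± 0.13 log2 units off (1.70-fold, edgeR adjusted p = 1.7e-05) and by 1.34 ± 0.12 on the drug (2.53-fold, adjusted p = 1.3e-09).

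For PMAIP1, HRK and BMF, the 3 genes called off the drug against the minimum of 0.5 log2 units, the 250 bases before a RefSeq start site (GRCh38.p14, sense strand of the gene, ending at the base before the start) are shown. A window was present for 7 of the 8 genes, all but BIK. Capitals mark matches, on either strand, to TGACGT (the core of the cAMP response element, bound by CREB and ATF factors), TGATGNAA (the C/EBP-ATF element bound by ATF4 and CHOP) and GGGCGG (the GC box bound by SP1). These motifs, with the E-box CACGTG and the FOXO site GTAAACA, were chosen with the sequences in view. The PMAIP1 window is chr18:59899746-59899995 on the plus strand, the HRK window chr12:116881442-116881691 and the BMF window, 1 of 2 for this gene, chr15:40108880-40109129, both on the minus strand.
PMAIP1: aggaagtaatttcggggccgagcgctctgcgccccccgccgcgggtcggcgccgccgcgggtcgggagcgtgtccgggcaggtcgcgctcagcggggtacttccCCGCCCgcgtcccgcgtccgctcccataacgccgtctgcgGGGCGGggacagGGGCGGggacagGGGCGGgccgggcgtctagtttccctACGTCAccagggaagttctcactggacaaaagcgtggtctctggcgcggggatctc
HRK: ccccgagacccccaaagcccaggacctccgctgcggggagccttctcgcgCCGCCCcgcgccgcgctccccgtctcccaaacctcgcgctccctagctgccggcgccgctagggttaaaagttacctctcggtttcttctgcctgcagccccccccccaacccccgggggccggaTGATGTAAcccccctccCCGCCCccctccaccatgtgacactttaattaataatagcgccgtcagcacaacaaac
BMF: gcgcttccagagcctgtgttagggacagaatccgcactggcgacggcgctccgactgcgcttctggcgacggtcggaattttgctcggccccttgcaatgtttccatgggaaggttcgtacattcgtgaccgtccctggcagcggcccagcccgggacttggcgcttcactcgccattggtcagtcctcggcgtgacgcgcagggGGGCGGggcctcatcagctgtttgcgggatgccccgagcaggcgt

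The PMAIP1 window held 1 TGACGT match, written as its reverse complement and starting 56 bases before the start site, and 4 GC boxes. The HRK window held 1 TGATGNAA match 75 bases before the start and 2 GC boxes, and the BMF window shown a single GC box, 45 bases before the start. The other BMF window held none of the 5 motifs. Among 34788 distinct windows of the same length, 7.09% held TGACGT, 3.16% TGATGNAA, 42.6% the GC box, 6.31% the E-box and 2.98% the FOXO site. BAD, which did not pass the test between the lines off the drug, held TGACGT as well, at 1 site that both of its overlapping windows cover. BBC3 held 1 E-box and BCL2L11 1 FOXO site with 3 GC boxes. The 5 windows of BID, of which only some overlap, held 0 to 4 GC boxes each. The E-box in 2 of them is 1 site that both cover, and GC boxes in shared bases were counted in each window. A match of letters is a description of the window and not a bound site.

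BBC3, which encodes the p53 target PUMA, stood at 4.486 and 4.005 CPM in parental untreated and at 5.60 and 6.38 CPM in resistant untreated libraries. On the drug it stood at 3.37 and 3.07 CPM in parental and 5.35 and 5.31 CPM in resistant ones. The lines did not overlap in either setting. The line difference of BBC3 was 0.49 ± 0.09 log2 units off the drug and 0.73 ± 0.09 on it (edgeR adjusted p = 2.7e-07). BBC3 is rich in G and C (69.7% of the bases of its longest transcript, against a median of 47.9% over tested genes). After a correction for GC content and exon length the difference on the drug was 0.35 (edgeR adjusted p = 0.00093).

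BID, which caspase-8 cleaves to link death receptors to mitochondria, stood at 27.5 and 28.5 CPM in parental untreated and at 38.7 and 40.7 CPM in resistant untreated libraries. On the drug the values were 23.8 and 23.3 CPM in parental and 27.3 and 26.0 CPM in resistant libraries. Both resistant libraries lay above both parental ones in each setting, by more off the drug. The line difference of BID was 0.50 ± 0.04 log2 units off the drug (1.42-fold) and 0.18 ± 0.04 on it (1.13-fold, edgeR adjusted p = 0.00086). BIK, the founding BH3-only protein, which sits at the endoplasmic reticulum, stood at 5.46 and 5.46 CPM in parental untreated and 6.71 and 6.22 CPM in resistant untreated libraries. On the drug BIK stood at 5.56 and 5.58 CPM in parental and 6.50 and 6.22 CPM in resistant libraries. No resistant library of BIK overlapped a parental one in either setting. The line difference was 0.24 ± 0.07 log2 units off the drug (edgeR adjusted p = 0.0048) and 0.19 ± 0.07 on it (adjusted p = 0.026). The call of BIK off the drug was lost without resistant untreated replicate 1 (0.19, adjusted p = 0.072) and on the drug without resistant indisulam replicate 1 (0.16, adjusted p = 0.12). On the drug the call of BIK was also lost after the GC and length correction (0.10, adjusted p = 0.21) and by the DESeq2 Wald test (adjusted p = 0.12).

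BCL2L11, which encodes the broadly binding BIM, stood at 20.2 and 20.6 CPM in parental untreated and at 22.3 and 22.7 CPM in resistant untreated libraries. On the drug it stood at 22.4 and 22.7 CPM in parental and 19.3 and 21.1 CPM in resistant libraries. It was higher in resistant cells off the drug, by 0.14 ± 0.04 log2 units (edgeR adjusted p = 0.0091), and lower on it, by -0.15 ± 0.05 (adjusted p = 0.0048). The call off the drug was lost after the GC and length correction (0.06, adjusted p = 0.19) and without parental untreated replicate 1 (0.13, adjusted p = 0.07). The call on the drug was lost without parental indisulam replicate 2 (-0.12, adjusted p = 0.073) or resistant indisulam replicate 1 (-0.09, adjusted p = 0.11). It was also lost with scaling by library totals alone (-0.06, adjusted p = 0.22) and with a filter at a mean of 1 CPM (-0.07, adjusted p = 0.14).

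BAD stood at 26.5 and 26.1 CPM in parental untreated and at 26.8 and 26.1 CPM in resistant untreated libraries, which overlapped (difference 0.01 ± 0.04 log2 units, edgeR adjusted p = 0.85). On the drug the values were 22.5 and 22.0 CPM in parental and 24.0 and 24.4 CPM in resistant libraries, a difference of 0.12 ± 0.04 (adjusted p = 0.01). After the GC and length correction this difference turned to -0.16 (adjusted p = 0.0063), where 66.3% of the bases of the longest BAD transcript are G or C. Without the correction it was no longer called when resistant indisulam replicate 2 was left out (0.12, adjusted p = 0.063) or by the DESeq2 Wald test (adjusted p = 0.052). Of the exon bases of BAD, 23.7% lie opposite exons of GPR137, a gene on the other strand that took 68.1% of the reads counted for both. The libraries are strand-specific, but the strand setting of the counting is not given in the sources used here. GPR137 was higher in resistant cells by 0.51 ± 0.04 off and 0.57 ± 0.04 on the drug, and its part in the BAD values was not tested.

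On the drug all 8 genes were called between the lines, 7 higher and 1 lower, against 69.5% of all tested genes called, 34.6% higher and 34.9% lower. Parental cells had 18 h of drug here and resistant cells continuous exposure, so line and length of exposure cannot be told apart. The median of the 8 was 0.46 log2 units and that of all tested genes 0.00. Against the minimum of 0.5 log2 units 4 were called, PMAIP1, HRK, BBC3 and BMF, where 21.1% of all tested genes were. The sum of the 8 levels per length was 41.6 to 47.1 CPM per kb in the parental and 60.8 to 65.4 CPM per kb in the resistant libraries. Much of this gap lay in PMAIP1, at 14.4 in parental and 26.7 in resistant cells off the drug, and 13.0 and 28.2 on it. BAD stood at 15.4 and 15.5 off the drug, and 13.0 and 14.2 on it.

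**Figure D2:**
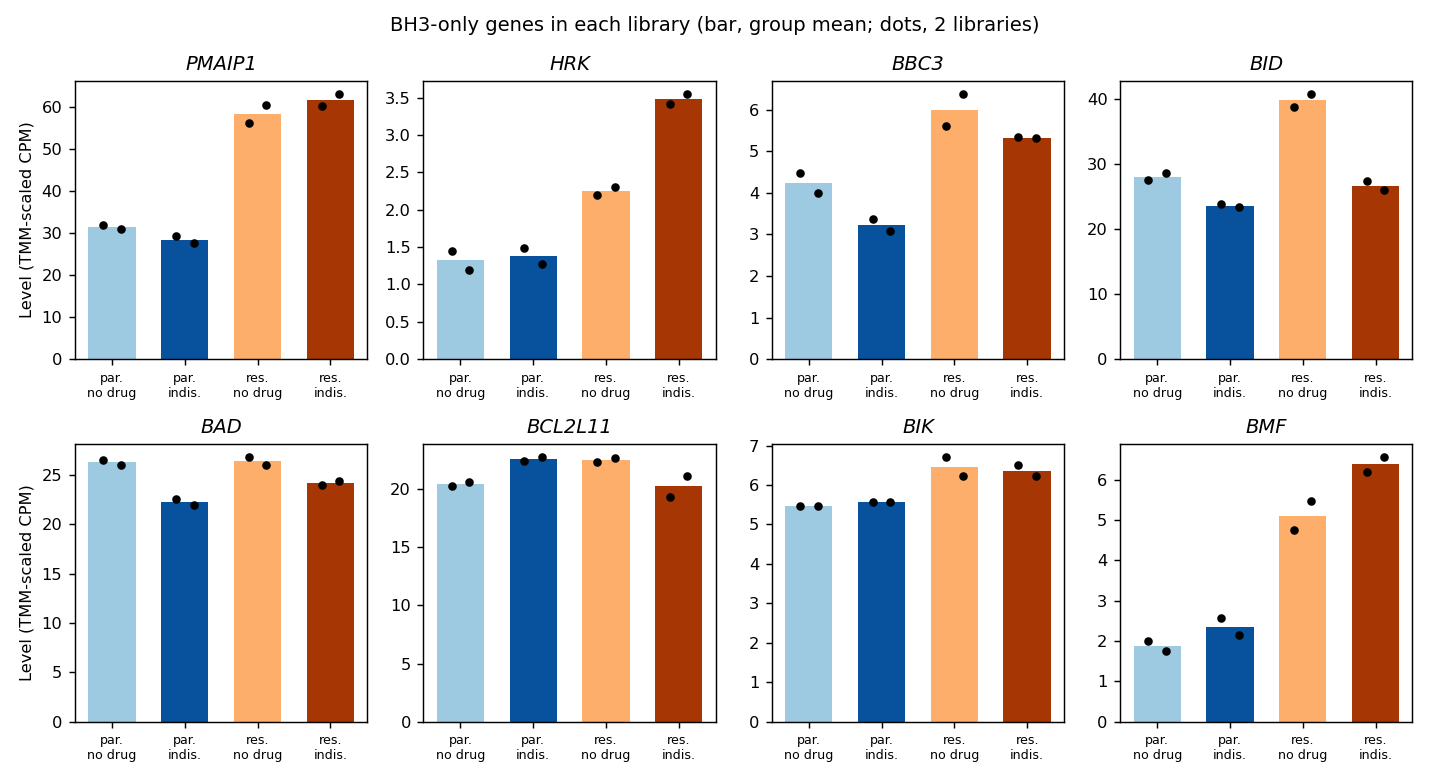
Level (TMM-scaled CPM, axes from 0) of each BH3-only gene in the 4 groups; bars are group means and dots are the 2 libraries. PMAIP1, HRK, BBC3, BIK and BMF stand higher in all 4 resistant libraries than in all 4 parental ones (19.9% of all tested genes do), BID is highest in resistant cells off the drug, and the BAD and BCL2L11 groups lie within 22.3 to 26.5 and 20.2 to 22.5 CPM.

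After 18 h of indisulam parental cells held less RNA of BBC3, BID, BAD and PMAIP1 and more of BMF and BCL2L11. These 6 calls among the 8 genes, 2 higher and 4 lower, compare with 58.2% of all tested genes called, 31.6% higher and 26.6% lower. The median of the 8 was -0.06 log2 units, against 0.01 for all tested genes. None was called against the minimum of 0.5 log2 units by edgeR's glmTreat, where 6.25% of all tested genes were. At an unadjusted glmTreat p under 0.05 the count was also 0.

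In parental cells BBC3 fell by 0.40 ± 0.09 log2 units (edgeR adjusted p = 0.00078), BID by 0.25 ± 0.04 (adjusted p = 1.5e-05), BAD by 0.24 ± 0.04 (adjusted p = 1.4e-05) and PMAIP1 by 0.15 ± 0.04 (adjusted p = 0.005). For these 4 genes both treated libraries lay below both untreated ones, and 78.8% of all tested genes had no overlap between these groups in either direction. After the GC and length correction the fall of BBC3 was -0.21 (adjusted p = 0.036) and that of BAD was no longer called (-0.04, adjusted p = 0.49). The fall of PMAIP1 lost its call without parental untreated replicate 1 (-0.13, adjusted p = 0.058). BMF rose by 0.32 ± 0.12 (adjusted p = 0.024) and BCL2L11 by 0.14 ± 0.04 (adjusted p = 0.0073). The rise of BMF was not called by the DESeq2 Wald test (adjusted p = 0.067), with library totals alone (0.25, adjusted p = 0.079), with a filter at a mean of 1 CPM (0.26, adjusted p = 0.061) or after thinning to the smallest total (0.22, adjusted p = 0.15), nor without parental untreated replicate 2 (0.23, adjusted p = 0.19) or parental indisulam replicate 1 (0.17, adjusted p = 0.33). The rise of BCL2L11 was not called without parental untreated replicate 1 (0.13, adjusted p = 0.063) or parental indisulam replicate 2 (0.11, adjusted p = 0.094), nor with library totals alone (0.08, adjusted p = 0.15) or the filter at 1 CPM (0.09, adjusted p = 0.086). Of the BCL2L11 exon bases, 10.8% overlap the opposite-strand transcript MIR4435-2HG, which fell by 0.53 ± 0.06 in these cells and by 0.25 ± 0.07 in resistant cells, and whose part in the BCL2L11 values was not tested. HRK (0.06 ± 0.14, adjusted p = 0.73) and BIK (0.03 ± 0.07, adjusted p = 0.76) did not pass the test.

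In resistant cells the drug, kept on without a break, was compared with the drug holiday, and 5 of the 8 genes were called, 2 higher and 3 lower. Of all tested genes 50.7% were called, 24.9% higher and 25.8% lower. The median of the 8 was -0.08 and that of all tested genes 0.01. Again none was called against the minimum of 0.5 log2 units by edgeR's glmTreat, where 5.28% of all tested genes were. At an unadjusted glmTreat p under 0.05 the count was 2, BID and HRK, whose estimates lay beyond the minimum.

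BID showed the largest fall among the 8 in resistant cells, by 0.58 ± 0.04 log2 units to 0.670 of its holiday level (edgeR adjusted p = 3.6e-11), at percentile 5.32 of all tested genes. HRK showed the largest rise, 0.63 ± 0.12 (1.55-fold, adjusted p = 8.3e-05), at percentile 90.4. BMF rose by 0.33 ± 0.09 (adjusted p = 0.0045), while BCL2L11 fell by 0.15 ± 0.05 (adjusted p = 0.0093) and BAD by 0.13 ± 0.04 (adjusted p = 0.011). The rise of BMF was not called without resistant untreated replicate 1 (0.23, adjusted p = 0.083) or resistant indisulam replicate 2 (0.28, adjusted p = 0.074). Without resistant indisulam replicate 1 the falls of BCL2L11 (-0.10, adjusted p = 0.13) and BAD (-0.12, adjusted p = 0.057) were not called, which left 3 of 8 called. The fall of BAD was also not called without resistant untreated replicate 1 (-0.10, adjusted p = 0.099) or by the DESeq2 Wald test (adjusted p = 0.055). With library totals alone neither BAD (-0.08, adjusted p = 0.12) nor BCL2L11 (-0.10, adjusted p = 0.079) was called. PMAIP1 (0.08 ± 0.04, adjusted p = 0.085), BBC3 (-0.16 ± 0.09, adjusted p = 0.12) and BIK (-0.03 ± 0.07, adjusted p = 0.76) did not pass. PMAIP1 was called as higher without resistant untreated replicate 2 (0.13, adjusted p = 0.016), with library totals alone (0.13, adjusted p = 0.012) and with the filter at 1 CPM (0.11, adjusted p = 0.024). BBC3 was called as lower after the GC and length correction (-0.35, adjusted p = 0.00053) and without resistant untreated replicate 1 (-0.25, adjusted p = 0.041).

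**Figure D3:**
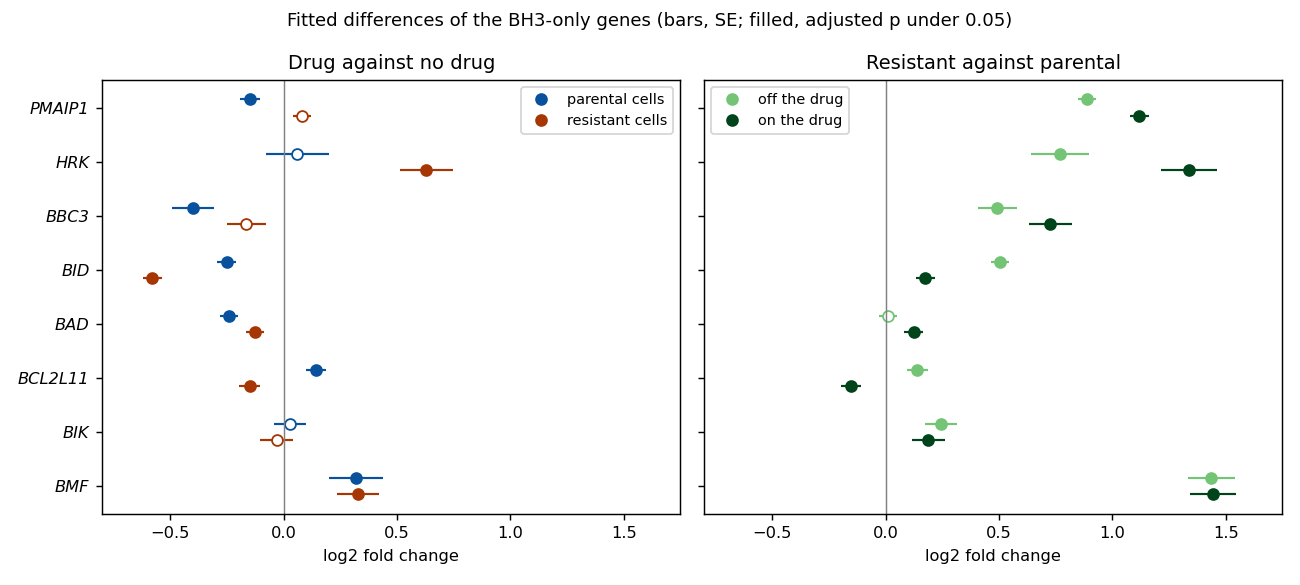
Fitted log2 fold changes of the 8 BH3-only genes for drug against no drug in each line (left) and for the line difference without and with the drug (right). Bars are standard errors and filled points passed the test; drug effects lie between -0.58 and 0.63, and line differences reach 1.44 for BMF.

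The difference between the drug responses of the lines was tested as an interaction, resistant minus parental response. It sets an 18 h exposure of parental cells against continuous exposure of resistant cells, so line and length of exposure cannot be told apart. The test called 4 of the 8 genes, 2 in each direction, against 50.1% of all tested genes called, 22.7% positive and 27.5% negative. The median of the 8 was 0.06 and that of all tested genes 0.01. None was called against the minimum of 0.5 log2 units by edgeR's glmTreat, where 5.45% of all tested genes were, and at an unadjusted glmTreat p under 0.05 the count was 0 as well.

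BID responded by -0.33 ± 0.06 log2 units more in resistant cells (edgeR adjusted p = 5.6e-05) and BCL2L11 by -0.29 ± 0.06 (adjusted p = 0.00052), the latter with opposite called signs in the lines. PMAIP1 had a positive difference of 0.23 ± 0.06 (adjusted p = 0.0021). HRK had one of 0.57 ± 0.18 (adjusted p = 0.012), which was not called without parental untreated replicate 1 (0.41, adjusted p = 0.12) or parental indisulam replicate 2 (0.48, adjusted p = 0.055), nor by DESeq2 (adjusted p = 0.081). BMF had a difference of 0.01 ± 0.15 (adjusted p = 0.97), whose standard error leaves room for a difference in either direction. BBC3 (0.23 ± 0.13, adjusted p = 0.13) and BAD (0.11 ± 0.06, adjusted p = 0.098) did not pass, and after the GC and length correction they stood at -0.14 (adjusted p = 0.32) and at -0.25 (adjusted p = 0.0042). BAD was also called without resistant untreated replicate 1 (0.16, adjusted p = 0.039), as was BBC3 without resistant untreated replicate 2 (0.34, adjusted p = 0.035). Both were called as positive with library totals alone (BBC3 0.35, adjusted p = 0.03; BAD 0.23, adjusted p = 0.0022) and with the filter at 1 CPM (0.32, adjusted p = 0.042, and 0.20, adjusted p = 0.005). BIK stood at -0.06 ± 0.10 (adjusted p = 0.67) and, after the same correction, at -0.25 (adjusted p = 0.04).

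**Figure D4:**
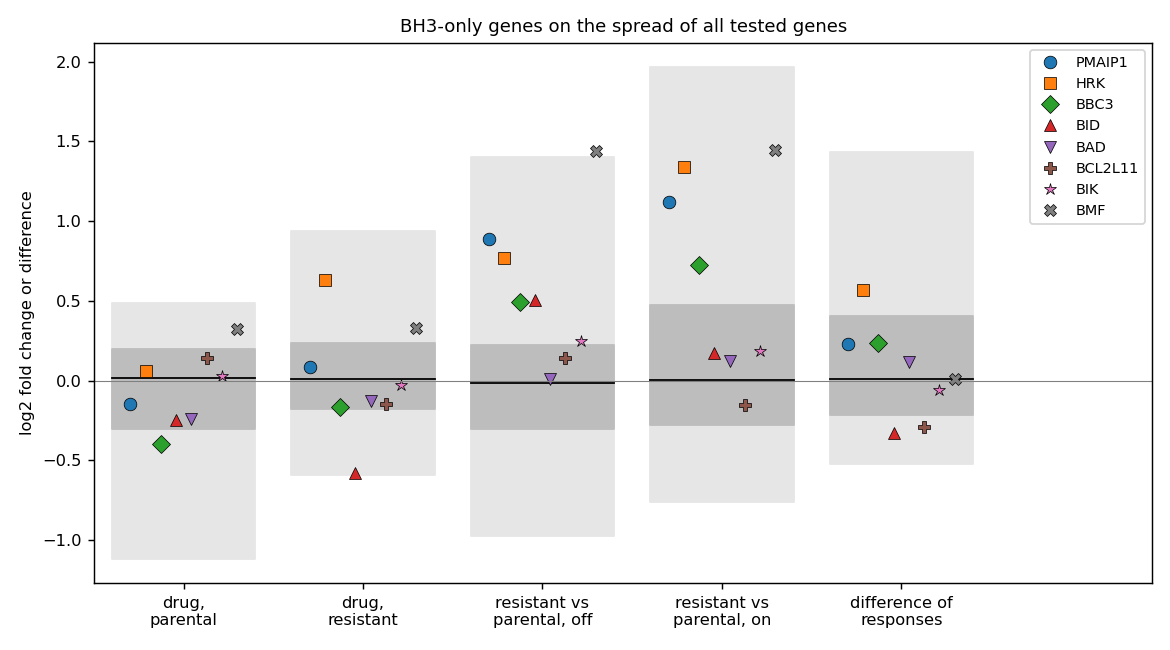
Log2 fold change, or difference of responses, of each BH3-only gene (symbols) in 5 comparisons, over the middle of all 16661 tested genes (dark band, 25th to 75th percentile; light band, 5th to 95th; black line, median). BMF lies at percentile 95.1 off the drug, and BID at percentile 5.32 in the drug response of resistant cells.

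Set in order, the 4 group levels of each gene gave 24 pairs of neighbours, of which 15 were called, and 12 to 16 when 1 library was left out. For this order 2 further pairs of groups were tested, in which 64.8% (resistant indisulam against parental untreated) and 68.7% (resistant untreated against parental indisulam) of all tested genes were called. BMF was the only gene of the 8 whose neighbours were all called, running from parental untreated through parental indisulam and resistant untreated to resistant indisulam, where it was 1.76 ± 0.10 log2 units above the first group. The first of these steps is the drug response of parental cells, which lost its call in the alternatives given above, and the last is that of resistant cells, which was not called without resistant untreated replicate 1 or resistant indisulam replicate 2. PMAIP1 ran from parental indisulam through parental untreated to the resistant groups, which were not told apart by the test. In HRK the parental groups were not told apart, nor were the resistant groups in BBC3. BID was lowest in parental indisulam and highest in resistant untreated cells, and resistant cells on the drug were not told apart from untreated parental cells (-0.08 ± 0.04, edgeR adjusted p = 0.11), although BID was called lower there after the GC and length correction (-0.10, adjusted p = 0.023). The same correction ended the call of BBC3 between these groups (0.33 before, 0.14 after, adjusted p = 0.11). In BAD the untreated groups of the lines were not told apart. In BCL2L11 and BIK only the middle pair of neighbours was called.

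Over the 8 libraries the log2 CPM of HRK and BMF had a Pearson r of 0.96, as had PMAIP1 and BMF, and PMAIP1 and HRK had 0.93. The lowest r was -0.29, between HRK and BCL2L11. These are descriptions over 8 libraries in 4 groups, which share the line difference. Among 12496 protein-coding genes, the patterns most like that of PMAIP1 were those of VWA1 and KRBOX4 (r = 0.998 each), and 972 genes had an r above 0.95. For BMF they were B4GAT1 (0.998) and CARD6 (0.997), with 706 genes above 0.95, and for HRK FAM221A and TAFA3 (0.995 each), with 406. BBC3 was nearest to PLXNB2 (0.990) and MAN2B2 (0.989), BID to MCM5 and SHFL (0.997 each) and BAD to STX4 and THBS4 (0.994 each). BIK was nearest to DPF2 (0.988) and ACOT4 (0.983). BCL2L11 was nearest to XPR1 (0.985) and UTP18 (0.971) and had the fewest genes above 0.95, which were 4. Its group means spanned only 20.2 to 22.5 CPM, and the part of this narrow span in the count was not tested.

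The proteins that BH3-only proteins act on were described from lists. Of 6 survival genes 4 were tested, since BCL2A1 and BCL2L10 were at or near 0. BCL2L1 differed between the lines by -0.01 ± 0.03 log2 units off the drug (edgeR adjusted p = 0.69), and on the drug resistant cells had less of it, by -0.30 ± 0.03 (adjusted p = 9.8e-10). MCL1 was higher in resistant cells off the drug by 0.17 ± 0.03 (adjusted p = 8.6e-06) and stood at -0.05 ± 0.03 on it (adjusted p = 0.14). BCL2 stood at -0.08 ± 0.07 off (adjusted p = 0.33) and was lower by -0.20 ± 0.07 on the drug (adjusted p = 0.013), while BCL2L2 was lower by -0.08 ± 0.03 off (adjusted p = 0.042) and stood at -0.06 ± 0.03 on it (adjusted p = 0.12). The BCL2 call was lost by the DESeq2 Wald test (adjusted p = 0.092), with library totals alone (-0.11, adjusted p = 0.15) and without parental indisulam replicate 2 (-0.17, adjusted p = 0.11), and that of BCL2L2 by DESeq2 (adjusted p = 0.22) and without parental untreated replicate 2 (-0.07, adjusted p = 0.21). The median of the 4 was -0.05 off and -0.13 on the drug, beside -0.02 and 0.00 for all tested genes. Of the 3 effectors BAX was lower in resistant cells by -0.44 ± 0.03 off (adjusted p = 9.1e-12) and -0.41 ± 0.03 on the drug (adjusted p = 2e-11). BAK1 stood at 0.05 ± 0.03 (adjusted p = 0.16) and 0.04 ± 0.03 (adjusted p = 0.26), the latter turning to -0.20 (adjusted p = 2.1e-06) after the GC and length correction. BOK was higher by 0.18 ± 0.04 and 0.34 ± 0.04, but stood at -0.02 (adjusted p = 0.51) on the drug after that correction.

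Under the drug, parental cells gained BAX (0.28 ± 0.03), BCL2 (0.24 ± 0.07), BAK1 (0.23 ± 0.03), BCL2L1 (0.18 ± 0.03) and MCL1 (0.12 ± 0.03), all called by edgeR, while BCL2L2 stood at -0.06 ± 0.03 (adjusted p = 0.14). BOK fell by 0.14 ± 0.04 (adjusted p = 0.0023) but stood at 0.02 (adjusted p = 0.58) after the GC and length correction. In resistant cells BAX (0.30 ± 0.03) and BAK1 (0.22 ± 0.03) rose, and BCL2L1 (-0.10 ± 0.03) and MCL1 (-0.11 ± 0.03) fell, all called. With library totals alone MCL1 (0.05, adjusted p = 0.12) was not called in parental cells, nor were BCL2L1 (-0.05, adjusted p = 0.088) and MCL1 (-0.06, adjusted p = 0.085) in resistant cells. BCL2 (0.12 ± 0.07, adjusted p = 0.18) and BCL2L2 (-0.04 ± 0.04, adjusted p = 0.39) did not pass there. The ratio of PMAIP1 to MCL1, the survival protein that NOXA prefers, was taken on levels per length. It was 0.234 to 0.238 in parental untreated, 0.189 to 0.204 in parental indisulam, 0.380 to 0.395 in resistant untreated and 0.436 to 0.445 in resistant indisulam libraries. The ratio of HRK to BCL2L1 was 0.00177 to 0.00215, 0.00167 to 0.00194, 0.00326 to 0.00351 and 0.00542 to 0.00579 in the same order. That of BAD to BCL2L1 was 0.156 to 0.158, 0.116 to 0.118, 0.159 to 0.160 and 0.153 to 0.160. The first 2 ratios were higher in every resistant than in every parental library, as were the levels of PMAIP1 and HRK alone. Every resistant library lay above every parental one for 19.9% of all tested genes. The ratio of BAD was lowest in parental cells on the drug. Ratios of RNA levels say nothing of protein amounts.

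Among 10 genes for partners that act on BH3-only proteins (caspase-8, the dynein light chains that hold BMF, and the 14-3-3 proteins that hold phosphorylated BAD), 6 were higher and 3 lower in resistant cells off the drug and 2 higher and 5 lower on it. Their median was 0.09 and -0.03, against -0.02 and 0.00 for all tested genes. Of those, 30.3% were called higher and 29.9% lower off the drug, and 34.6% and 34.9% on it. DYNLL2, which encodes the dynein light chain that BMF binds, was higher in resistant cells off the drug by 0.31 ± 0.03 (edgeR adjusted p = 2.8e-09), and the 14-3-3 gene YWHAG was lower by -0.26 ± 0.03 off and -0.56 ± 0.03 on it. Parental cells on the drug had 9 of the 10 higher and 1 lower (median 0.15), led by YWHAB (0.29 ± 0.03), and resistant cells 4 higher and 2 lower (median 0.01), with SFN rising by 0.23 ± 0.03 and DYNLL2 falling by 0.15 ± 0.03. All tested genes had 31.6% higher and 26.6% lower in parental cells (median 0.01), and 24.9% and 25.8% in resistant cells (median 0.01). SFN fell in parental cells by 0.11 ± 0.03 (adjusted p = 0.0016), but stood at 0.07 (adjusted p = 0.093) after the GC and length correction.

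Of 9 tested genes for transcription factors known to act on BH3-only genes, 4 were higher and 4 lower in resistant cells off the drug, and 6 higher and 2 lower on it (median 0.02 and 0.17). All tested genes had 30.3% higher and 29.9% lower off the drug, and 34.6% and 34.9% on it (median -0.02 and 0.00). JUN was higher by 0.53 ± 0.04 off and 0.98 ± 0.05 on the drug, and FOXO1 was lower by -0.92 ± 0.06 and -0.83 ± 0.05. Under the drug 4 rose and 4 fell in parental cells, and 6 rose and 2 fell in resistant cells. Among all tested genes 31.6% rose and 26.6% fell in parental cells, and 24.9% rose and 25.8% fell in resistant cells. ATF3, a stress-induced factor, rose by 0.22 ± 0.05 in parental and by 1.18 ± 0.05 in resistant cells. Its mean level was 14.4 CPM in untreated parental and 8.67 CPM in untreated resistant cells, and 16.7 and 19.7 CPM on the drug. E2F1, a cell-cycle factor, fell by 0.41 ± 0.03 in parental and by 0.60 ± 0.03 in resistant cells.

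Of 18 known p53 targets outside the 8, 6 were higher and 9 lower in resistant cells off the drug (median -0.20), and 7 higher and 8 lower on it (median -0.12). For this list and the next, the shares of all tested genes were 30.3% higher and 29.9% lower off the drug, and 34.6% and 34.9% on it. Under the drug they were 31.6% and 26.6% in parental cells, and 24.9% and 25.8% in resistant cells. The medians of all tested genes were -0.02, 0.00, 0.01 and 0.01 in the same order. PHLDA3 was higher by 4.34 ± 0.27 off and 5.94 ± 0.30 on the drug, from 1 to 11 reads in the parental and 106 to 256 in the resistant libraries, while BTG2 was lower off the drug (-0.84 ± 0.23) and FAS on it (-0.79 ± 0.08). The BTG2 difference was -0.52 (adjusted p = 0.091) without resistant untreated replicate 1 and -1.20 without resistant untreated replicate 2. Under the drug 7 rose and 5 fell in parental cells (median 0.03), led by CCNG1 (0.56 ± 0.03) and FDXR (-0.82 ± 0.09). In resistant cells 7 rose and 6 fell (median 0.04), led by GDF15 (1.81 ± 0.17) and DDB2 (-0.38 ± 0.05). The GDF15 rise rests on few reads, 35 and 37 in the resistant untreated and 126 and 172 in the resistant indisulam libraries. Of 11 known targets of ATF4 and CHOP, 5 were higher and 5 lower in resistant cells off the drug (median 0.10), and 6 higher and 3 lower on it (median 0.37). PHGDH, for the first enzyme of serine synthesis, stood at 0 or 1 read in the parental libraries and at 27 to 35 in the resistant ones. ASNS was lower in resistant cells off the drug by -0.81 ± 0.18. PSAT1 was lower in them on the drug by -0.59 ± 0.03 (edgeR adjusted p = 1e-14), at a mean of 97.7 CPM against 147.3 CPM in parental cells. Under the drug 2 rose and 5 fell in parental cells (median -0.07), led by PPP1R15A (0.48 ± 0.03) and ASNS (-0.90 ± 0.18). In resistant cells 6 rose and 2 fell (median 0.18), led by PPP1R15A (0.58 ± 0.03) and SLC7A11 (-0.39 ± 0.05).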

How the data were processed

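RNA sequencing was done on 8 libraries in 4 groups of 2. The authors prepared strand-specific poly(A) libraries, sequenced paired-end reads, trimmed them with SeqPurge and aligned them to GRCh38. The submitters' processing notes name HISAT2 2.2.1, Picard and HTSeq. The deposited values are raw read counts per Ensembl gene, and 9 summary lines per table, among them reads marked as duplicates, were left out. The annotation release and strand setting of the counting are not given in the sources used here. Symbols, positions, exon lengths and coding stretches came from GENCODE 44, which matched 60419 of 60675 identifiers, and start-site windows from RefSeq. Without molecular identifiers a read is not a molecule, so depth bounds counting error only.

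The counts were filtered with filterByExpr, scaled with TMM and fitted with edgeR 4.0.16 in R 4.3.3 (quasi-likelihood, robust, 4 group means, 4 residual degrees of freedom). The standard error is the log2 fold change divided by the square root of F. Called genes had a Benjamini-Hochberg adjusted p under 0.05, and glmTreat tested against 0.5 log2 units. With 2 libraries a side an exact two-sided permutation p cannot go below 0.333, so that test was not used. The code was tested on simulated counts. Levels per length used merged exons. Genes named were the 8 members, BCL2, BCL2L1, BCL2L2, MCL1, BAX and BAK1, the called gene with the largest rise and the one with the largest fall of each list in each comparison, and the 2 genes nearest to each member by Pearson r of log2 CPM. RBM39 and the genes that overlap BAD and BCL2L11 were added. The lists were survival members, effectors, genes downstream of the mitochondrion, partners, other BH3-motif genes, transcription factors, p53 targets, and ATF4 and CHOP targets, with markers of ductal epithelium, lung alveoli, leukocytes and fibroblasts. The members and the lists were chosen with earlier results of these data known.

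The alternatives were DESeq2 size factors, library totals, the Wald test of DESeq2 1.42.0, leaving out the filter, a filter at a mean of 1 CPM, a fit to the compared groups alone, the replicate number as block, and a threshold of 0.01. Others were thinning to the smallest total, a GC content and transcript length correction with and without the block, and leaving out single libraries. That correction (mgcv 1.9.3) fitted, per library, a smooth curve of GC content and a smooth curve of log2 length. Both were taken from the longest transcript, and 99.6% of tested genes had a value. For levels per length the alternative was the longest transcript. Plots were made in Python 3.11.15 with matplotlib 3.10.9.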

Additional observations from a re-analysis of the deposited data

Results flagged for a closer look

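A difference between the drug responses of the lines, tested as an interaction in the edgeR model, singled out 4 of the 8 BH3-only genes. The difference, resistant minus parental response, was 0.23 log2 units for PMAIP1, 0.57 for HRK, -0.33 for BID and -0.29 for BCL2L11. Of all tested genes 50.1% were called in this comparison, so 4 of 8 is close to the share of all genes. BCL2L11 rose in parental and fell in resistant cells, and the libraries of the overlapping transcript MIR4435-2HG had a difference of 0.28 on the same measure, whose part was not tested.

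The same test called 14 genes named from the lists. Positive differences were 1.59 for PHLDA3, 1.08 for ASNS, 0.97 for ATF3, 0.63 for DIABLO, 0.34 for SFN, 0.25 for BECN1 and 0.15 for BOK. Negative differences were -0.45 for CYCS, -0.39 for YWHAB, -0.38 for MYC, -0.37 for AEN, -0.29 for PSAT1, -0.29 for BCL2L1 and -0.22 for MCL1. PHLDA3 (1 to 11 reads in parental libraries) and ASNS (38 to 115 reads) rest on few reads. The PHLDA3 difference was 3.33 (adjusted p = 0.003) without parental indisulam replicate 1 and 0.83 (adjusted p = 0.32) without parental indisulam replicate 2. That of DIABLO was not called without parental untreated replicate 1 (0.45, adjusted p = 0.12) or by the DESeq2 Wald test (adjusted p = 0.1). After the correction for GC content and exon length BOK was called in the opposite direction (-0.14, adjusted p = 0.013) and SFN was not called (0.05, adjusted p = 0.43). In every one of these the lines also differ in the length of exposure to the drug.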

How the results depend on the processing

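PMAIP1, HRK, BBC3, BID and BMF were called higher in resistant cells, off and on the drug, in every alternative run, except that BBC3 off the drug and BID in both settings were not called against a minimum of 0.5 log2 units. That minimum was also the only alternative to end the calls of BBC3 and BID for the drug in parental cells, of HRK and BID for the drug in resistant cells, and of PMAIP1, BID and BCL2L11 for the difference of responses. The other called values among the 8 genes each lost their call in at least 1 further alternative. Leaving out 1 library at a time, the BMF difference ranged from 1.35 to 1.54 off and from 1.34 to 1.60 on the drug. Against that minimum the number of the 8 genes called was 0 for the drug in parental cells, 0 for the drug in resistant cells, 3 between the lines off the drug, 4 on the drug, 0 for the difference of responses, and 2 of 24 neighbours in the order. Leaving out 1 library, the count for the drug in resistant cells ranged from 3 to 6. In the difference of responses the median of all genes was 0.13 log2 units with library totals alone, against 0.01 with TMM scaling.

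The replicate numbers of the titles did not pair the libraries (correlation of same-numbered deviations -0.06 to 0.02). With the replicate block in the fit the counts stayed as they were (6, 5, 7, 8 and 4 of the 8 genes, and 15 of 24 neighbours) and no other call changed. Per kb of the longest transcript, levels in parental untreated cells were 16.6 for PMAIP1, 0.228 for HRK, 2.30 for BBC3, 11.2 for BID, 22.7 for BAD, 3.95 for BCL2L11 and 0.401 for BMF, with the order of the 8 kept.

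Values that changed sign follow, and the cause was not tested. After the GC and length correction, without and with the replicate block, these were on the drug BAD (-0.16 and -0.16), BOK (-0.025 and -0.024), MCL1 (0.0099 and 0.0097) and BAK1 (-0.20 and -0.20). Off the drug it was BAK1 (-0.0033 and -0.0033), and for the drug in parental cells BOK (0.022 and 0.022) and SFN (0.065 and 0.065). For the difference of responses they were BBC3 (-0.14 and -0.14), BAD (-0.25 and -0.25), BMF (-0.022 and -0.023), BOK (-0.14 and -0.14) and BAX (-0.19 and -0.19), where BAD, BOK and BAX were called as negative. The values that follow were called neither before nor after. With library totals alone these were HRK (-0.0060) and BIK (-0.039) for the drug in parental cells, BIK (0.019) and BCL2L2 (0.011) for the drug in resistant cells, BAD off the drug (-0.018), BCL2L2 (0.027) and MCL1 (0.040) on it, and BIK (0.058) and BAK1 (0.10) for the difference of responses. With a mean CPM of at least 1 they were BIK for the drug in parental cells (-0.029), BCL2L2 (0.018) and MCL1 (0.032) on the drug, and BIK (0.027) and BAK1 (0.072) for the difference of responses. Without a filter they were BIK for the drug in parental cells (-0.0026) and BAK1 for the difference of responses (0.011). After thinning they were HRK for the drug in parental cells (-0.12) and BAD off the drug (-0.016). BMF for the difference of responses stood at -0.0042 with DESeq2 size factors and -0.0086 with the DESeq2 Wald test. Leaving out 1 library, ranges that crossed 0 were -0.075 to 0.21 for HRK under the drug in parental cells, -0.089 to 0.031 for BIK under the drug in resistant cells, -0.012 to 0.040 for BAD and -0.032 to 0.015 for BCL2L1 off the drug, and, for the difference of responses, -0.096 to 0.023 for BIK, -0.097 to 0.16 for BMF and -0.022 to 0.032 for BAK1.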

Other observations

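Genes that act after the mitochondrial membrane opens, and other genes with a BH3 motif, were also listed. Of 8 downstream genes, 4 were higher and 1 lower in resistant cells off the drug (median 0.04 log2 units, against -0.02 for all tested genes), and 3 higher and 2 lower on it (median 0.06, against 0.00). The shares of all tested genes were 30.3% higher and 29.9% lower off the drug, and 34.6% and 34.9% on it. Under the drug they were 31.6% and 26.6% in parental cells, and 24.9% and 25.8% in resistant cells. CYCS, for cytochrome c, was lower in resistant cells by -0.28 ± 0.03 off and -0.73 ± 0.03 on the drug (edgeR adjusted p = 6.7e-17), and CASP9, for the initiator caspase, was higher off the drug by 0.44 ± 0.06 (adjusted p = 1.6e-06). Parental cells on the drug had 4 of the 8 higher and none lower, with APAF1, the scaffold of the apoptosome, rising by 0.34 ± 0.05. Resistant cells on the drug had 3 higher and 3 lower, with CYCS falling by 0.23 ± 0.03. DIABLO, for the inhibitor of XIAP, rose there by 0.61 ± 0.15 from 92 and 90 to 131 and 196 reads.

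Of 4 other genes with a BH3 motif 3 were tested. BNIP3L, a mitophagy receptor, was higher in resistant cells off the drug by 0.15 ± 0.04 (edgeR adjusted p = 0.0019) and rose with the drug in both lines, by 0.21 ± 0.04 and 0.23 ± 0.04. BECN1, an autophagy regulator, fell with the drug in parental cells by 0.24 ± 0.03 and was higher in resistant cells on the drug by 0.28 ± 0.03 (adjusted p = 1.4e-07). In resistant against parental cells, 1 of the 3 was called off the drug and 2 on it, all of them higher. Among all tested genes 30.3% were called higher off the drug and 34.6% on it.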
